A study of Homo sapiens with 8 samples.

Results

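The response of KASUMI-1 cells to an LSD1 inhibitor was followed from 6 h to 72 h, gene by gene, to see which expression differences were kept, which were lost and which appeared late. The value examined was the change of response, the log2 ratio of the inhibitor (LSD1i) library over the vehicle library at 72 h minus the same log2 ratio at 6 h. A change of 1 means that the ratio at 72 h was 2-fold that at 6 h. Genes entered with a mean of at least 2 CPM, a gene's depth-scaled read count, in both the 6 h pair and the 72 h pair, which left 10808 of the 33045 gene names in the table. KASUMI-1 is a human acute myeloid leukemia line with the RUNX1::RUNX1T1 fusion that the study labelled sensitive, and THP-1, a monocytic leukemia line labelled resistant, was sampled at 24 and 72 h. The agent was DDP38003 at 0.5 µM or vehicle alone, and all 4 KASUMI-1 groups (vehicle and LSD1i at 6 h, vehicle and LSD1i at 72 h) came from the same unmodified line grown in flasks. Each group was 1 library, and nothing in the labels describes separate cultures. The study chose 6 and 72 h as the earliest and last times at which regulation of the kinase mTOR after LSD1 inhibition was seen in this line.

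LSD1, encoded by KDM1A, removes methyl groups from lysine 4 of histone H3 and works within corepressor complexes. In myeloid cells it is held at enhancers and promoters by the SNAG-domain repressors GFI1 and GFI1B, and its inhibition is known to release genes of monocyte differentiation in acute myeloid leukemia cells. mTOR is a kinase that couples nutrient and insulin signals to protein and lipid synthesis, and DDIT4 and the sestrins are stress-induced inhibitors of its complex 1.

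Counted reads in the KASUMI-1 libraries ranged from 23722972 (vehicle at 72 h) to 45970766 (LSD1i at 72 h), and the shallow 72 h vehicle library enters every late value. With 1 library in each group there was no replicate spread and no p-value for a single pair. Intervals given are 95% intervals that cover counting error only. A rise or fall below is a ratio of at least 2-fold whose exact binomial interval excludes equality, and a changed response is a change of at least 2-fold whose interval excludes 0. All 8 fixed myeloid blast markers (CD34, KIT, MPO and others) stood at 2 CPM or more in each of the 4 libraries. Markers of other cell types were low: the 4 T cell genes summed to between 2.48 and 3.59 CPM, the 4 B cell genes to between 6.75 and 8.29 CPM, the 4 erythroid genes to at most 0.228 CPM, and HBA1, HBB, MS4A1 and COL1A2 had no reads. Exceptions were EPCAM, an epithelial adhesion gene, with 127 to 166 CPM, and HOXA10, a homeobox gene among the 5 THP-1 markers, which summed to between 28.1 and 34.6 CPM. Of the 4 B cell genes CD79A (3.95 to 5.35 CPM) and PAX5 (2.17 to 3.37 CPM) also stood above 2 CPM in all 4 libraries. KDM1A, the gene of the target, had 196 and 181 CPM in the vehicle and LSD1i libraries at 6 h and 262 and 224 at 72 h. An inhibitor of the enzyme need not alter that transcript.

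The response grew between the 2 times and most early rises were kept. At 6 h 77 genes had risen (0.712% of the members) and 3 had fallen (0.0278%). At 72 h 327 had risen (3.03%) and 102 had fallen (0.944%). Of the 77 early rises 72 were rises at 72 h too, and of the 3 early falls 1 was a fall at 72 h. No gene met the rule for a lost rise, a lost fall or a reversed response. A lost response had to change by at least 2-fold, so missing the 2-fold line at 72 h was not enough. With a lesser threshold of 1.5-fold, 3.53% of members had risen and 1.66% had fallen at 6 h, and 11.4% and 7.97% at 72 h. The response was at least 2-fold higher at 72 h for 109 genes (1.01%) and at least 2-fold lower for 33 (0.305%). Scaled by total counts alone these counts were 49 and 102, and the late rises and late falls given next were 33 and 47. Among these changes were 62 late rises and 18 late falls, genes with no response at 6 h, a response at 72 h and a changed response between the 2 times. A larger group of 276 genes crossed the 2-fold line only at 72 h but with a change of less than 2-fold, and they are counted in no late class. Of the 255 genes that were rises at 72 h and not at 6 h, 235 had a 6 h ratio above 1, and of the 101 such falls 98 had a 6 h ratio below 1. Among all members 72.8% had the same sign at both times. A change above 0 was found for 58.1% of all members, the share to set beside the list counts below. Across genes, which are not independent replicates, the log2 ratios of the 2 times had a Pearson r of 0.70 and a Spearman rho of 0.64. The plot of both ratios shows most sustained rises above the line of equal ratio.

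**Figure D1:**
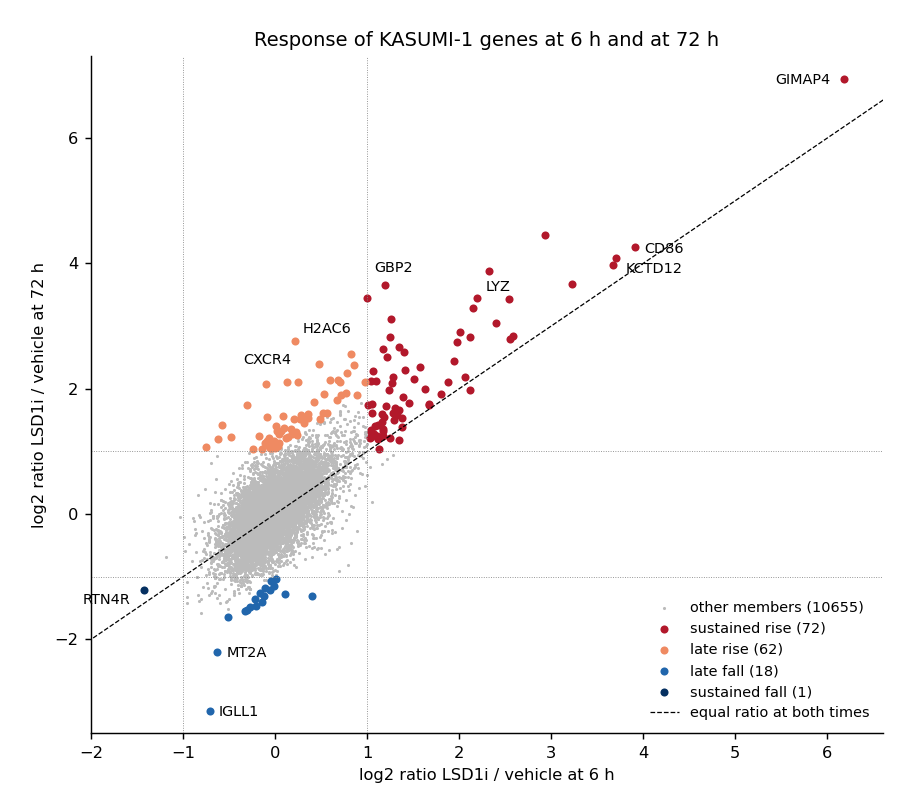
Each point is 1 of 10808 genes, with the log2 ratio of LSD1i over vehicle at 6 h on the x axis and at 72 h on the y axis; the dashed line marks an equal ratio and dotted lines mark 2-fold. The 72 sustained rises (red) lie mostly above the dashed line, the 62 late rises (orange) lie above 2-fold at 72 h only and the 18 late falls (blue) below it; no gene lies in the region of a lost or reversed response by the rule used.

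The largest sustained rises were genes of varied roles. CD86, a T cell costimulatory ligand and a common marker of LSD1 inhibition, had 0.682 and 11 CPM in the vehicle and LSD1i libraries at 6 h and 0.709 and 14.5 at 72 h. It was low in both vehicle libraries and high in both LSD1i libraries, with log2 ratios of 3.91 and 4.25 and a change of 0.34 (-0.58 to 1.23), an interval that includes 0. KCTD12, an auxiliary subunit of GABA-B receptors, had 3.31, 43.8, 4.34 and 74.2 CPM in the same order, with log2 ratios of 3.70 and 4.08. The membrane protein gene MS4A4A went from a log2 ratio of 3.22 to 3.66, the proton-sensing receptor gene GPR65 from 2.58 to 2.84, and SIRPB2, a member of the signal-regulatory protein family, from 2.55 to 2.79. In each of these genes the 2 vehicle libraries lay below both LSD1i libraries.

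Other sustained rises had larger ratios at 72 h. TLR1, a receptor for bacterial lipopeptides, had 0.997, 7.97, 0.532 and 12.8 CPM and a change of 1.52 (0.60 to 2.49). FGD6, an exchange factor for the GTPase CDC42, had a change of 0.89 (0.32 to 1.46), and SGMS2, a sphingomyelin synthase, one of 0.66 with an interval that includes 0 (-0.38 to 1.71). LYZ, the secreted lysozyme of monocytes and granulocytes, had 29.6 and 135 CPM in the vehicle and LSD1i libraries at 6 h and 37.9 and 415 at 72 h. Its log2 ratio went from 2.19 to 3.45, a change of 1.26 (1.12 to 1.39). GBP2, an interferon-inducible guanylate-binding protein, had 3.59, 8.3, 1.55 and 20.2 CPM, and its log2 ratio went from 1.19 to 3.66. It was lower at 72 h than at 6 h in the vehicle libraries and higher in the LSD1i libraries.

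Of the 72 sustained rises 68 had a change above 0 and 4 below 0. For 37 the interval of the change lay above 0, for 35 it included 0 and for none did it lie below 0, and 15 changed by at least 2-fold, all of them upward. The rule requires 2-fold at both times, so a gene near 2-fold at 6 h had no room for a 2-fold downward change. The median log2 ratio of these genes at 6 h was 1.31, and the direction of their changes follows in part from the rule. GIMAP4, a GTPase of immune cells, is given by its reads: 1 and 235 in the vehicle and LSD1i libraries at 6 h, 2 and 733 at 72 h. The ratio was 227 (40.4 to 9017) at 6 h and 201 (55.5 to 1666) at 72 h. With so few vehicle reads the intervals overlap, and the change on the log2 CPM scale was 0.76 (-2.84 to 3.01), so the 2 times cannot be ordered. IGSF3, an immunoglobulin superfamily gene, had 12, 184, 9 and 292 reads, and its ratio was 14.8 (8.29 to 29.2) and then 17.8 (9.26 to 39.4). These 2 genes were the members with fewer than 10 reads in a library. The only sustained fall was RTN4R, the Nogo receptor gene, with 7.48, 2.74, 10.5 and 4.5 CPM and log2 ratios of -1.43 and -1.21.

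Promoters of sustained and late rises were searched for the core letters AATCAC of the GFI1 binding site, since GFI1 recruits LSD1 in myeloid cells. The window was the 250 bases before the start, on both strands, for the 5934 members with a unique name match and a single listed start in RefSeq (GRCh38.p14). The letters were present in 6.34% of these promoters, in 6 of the 34 sustained rises that matched (17.6%), in 5 of 31 late rises (16.1%) and in 0 of 8 late falls. Of genes that crossed the 2-fold line only at 72 h, with a change under 2-fold, 8 of 132 had them (6.06%). That class holds both rises and falls. Among gene lists the letters ranged from 0 of 27 S phase promoters to 4 of 20 heat shock and unfolded protein response promoters. Other letters also differed in share: the E-box CACGTG was found in 9.76% of all, 1 of 34 sustained rises (2.94%), 5 of 31 late rises (16.1%) and 2 of 8 late falls, and the PU.1 letters GAGGAAGT in 1.97% of all, 2 of 34 sustained rises (5.88%), 0 of 31 late rises and 1 of 8 late falls. None of these shares was tested. The groups also differed in base composition, whose part in this count was not tested: the median transcript GC content was 41.6% for sustained rises, 45.6% for late rises and 48.0% for genes without a call. The promoters of SIRPB2 (chr20:1491421-1491670, minus strand) and GIMAP4 (chr7:150567140-150567389, plus strand) are shown for the sustained rises, with the core in capitals 142 and 197 bases before the start, on the strand of the gene. Those of PALD1 (chr10:70478517-70478766, plus strand) and TXK (chr4:48134251-48134500, minus strand) are shown for the late rises, with its reverse complement in capitals 25 and 204 bases before the start.
SIRPB2: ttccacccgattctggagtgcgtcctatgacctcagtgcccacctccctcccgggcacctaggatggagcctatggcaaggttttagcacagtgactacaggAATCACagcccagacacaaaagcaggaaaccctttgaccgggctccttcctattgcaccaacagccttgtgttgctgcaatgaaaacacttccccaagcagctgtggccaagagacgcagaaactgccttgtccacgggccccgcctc
GIMAP4: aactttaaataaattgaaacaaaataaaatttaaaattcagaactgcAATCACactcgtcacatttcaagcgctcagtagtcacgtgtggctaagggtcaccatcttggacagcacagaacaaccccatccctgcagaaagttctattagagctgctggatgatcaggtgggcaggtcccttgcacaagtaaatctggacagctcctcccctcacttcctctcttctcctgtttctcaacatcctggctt
PALD1: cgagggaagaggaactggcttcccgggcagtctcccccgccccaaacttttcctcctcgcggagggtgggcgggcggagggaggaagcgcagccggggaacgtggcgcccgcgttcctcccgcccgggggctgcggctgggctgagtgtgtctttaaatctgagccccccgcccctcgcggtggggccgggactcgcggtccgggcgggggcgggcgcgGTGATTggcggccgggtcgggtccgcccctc
TXK: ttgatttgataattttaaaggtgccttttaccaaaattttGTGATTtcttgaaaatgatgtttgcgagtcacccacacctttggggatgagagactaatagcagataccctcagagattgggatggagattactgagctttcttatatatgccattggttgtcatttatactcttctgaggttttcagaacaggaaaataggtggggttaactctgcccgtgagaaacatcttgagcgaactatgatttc
A match of these letters is a description of the window and was not tested as a binding site.

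The largest late rise was H2AC6, a histone H2A gene (chr6:26232352-26292434 in NCBI36 as the table gives it), with 2.7 and 3.15 CPM in the vehicle and LSD1i libraries at 6 h and 1.2 and 8.47 at 72 h. Its log2 ratio went from 0.22 to 2.77, a change of 2.55 (1.91 to 3.26). The span listed for it in the table is far longer than a histone gene. Counts were summed over exons by gene name, and overlap of its exons with neighbouring histone genes was not examined. Reads of such genes may be part of its count. CXCR4, the receptor for the stromal chemokine CXCL12 that retains blasts in the marrow, had 3.8 and 5.33 CPM in the vehicle and LSD1i libraries at 6 h and 2.48 and 13.3 at 72 h. The 72 h LSD1i library was the highest of the 4, and the change was 1.92 (1.43 to 2.43). DUSP10, a phosphatase that inactivates the stress kinases p38 and JNK, had 2.91, 3.2, 0.975 and 4.41 CPM, and TXK, a TEC-family tyrosine kinase, had 2.68, 2.49, 0.975 and 4.29 CPM. In both the 72 h vehicle library was the lowest of the 4, and the changes were 1.98 and 2.18.

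Late rises differed in the library they rested on. DPYD, which breaks down pyrimidines, had 2.15, 3.86, 2.26 and 13.6 CPM: both vehicle libraries were alike and the LSD1i level rose, for a change of 1.73 (1.17 to 2.30). TNFRSF14, the receptor HVEM, had 2.6, 1.73, 2.66 and 7.21 CPM, with a log2 ratio of -0.57 at 6 h and 1.42 at 72 h. CLIP2, a microtubule-binding protein gene, had 3.15, 1.85, 2.35 and 4.99 CPM and went from -0.75 to 1.07. For these 2 genes the LSD1i library was the lower of the pair at 6 h and the higher at 72 h. PALD1, which encodes a phosphatase-like protein named paladin, had 6.8, 8.1, 0.887 and 4.02 CPM. Its level was lower at 72 h than at 6 h in both arms, by a log2 ratio of -2.86 with vehicle and -1.0 with LSD1i, and the response was a smaller decrease rather than a gain of transcript.

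The 18 late falls were led by IGLL1, the surrogate light chain gene lambda 5 of B cell precursors, which some myeloid lines also express. It had 52.8 and 32.4 CPM in the vehicle and LSD1i libraries at 6 h and 71.9 and 8.11 at 72 h. The 72 h LSD1i library was the lowest of the 4 by a wide margin, the log2 ratio went from -0.71 to -3.14, and the change of -2.43 (-2.64 to -2.24) was the lowest of all members. Its exons resemble those of the lambda light chain genes, so its reads and theirs may be hard to separate. MT2A, a metal-binding metallothionein with near-identical paralogs, had 54.2, 35, 42.6 and 9.23 CPM and a change of -1.57 (-1.77 to -1.38). All 4 metallothioneins that passed the filter had a change below 0. DERL3, an endoplasmic reticulum protein of misfolded protein disposal, had 7.24, 7.79, 10.02 and 4.09 CPM, and SERPINA1, the protease inhibitor alpha-1 antitrypsin, had 9.37, 8.12, 8.07 and 2.9 CPM. COL9A3, a collagen chain gene, had a change of -1.27 (-1.94 to -0.66) from low levels of 2.78, 2.51, 3.46 and 1.27 CPM. DYNC2I2, an intermediate chain of the ciliary dynein, had 46.1, 38.1, 75.8 and 27 CPM, with the 72 h vehicle library the highest and the 72 h LSD1i library the lowest, and had a change of -1.21 (-1.36 to -1.07).

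**Figure D2:**
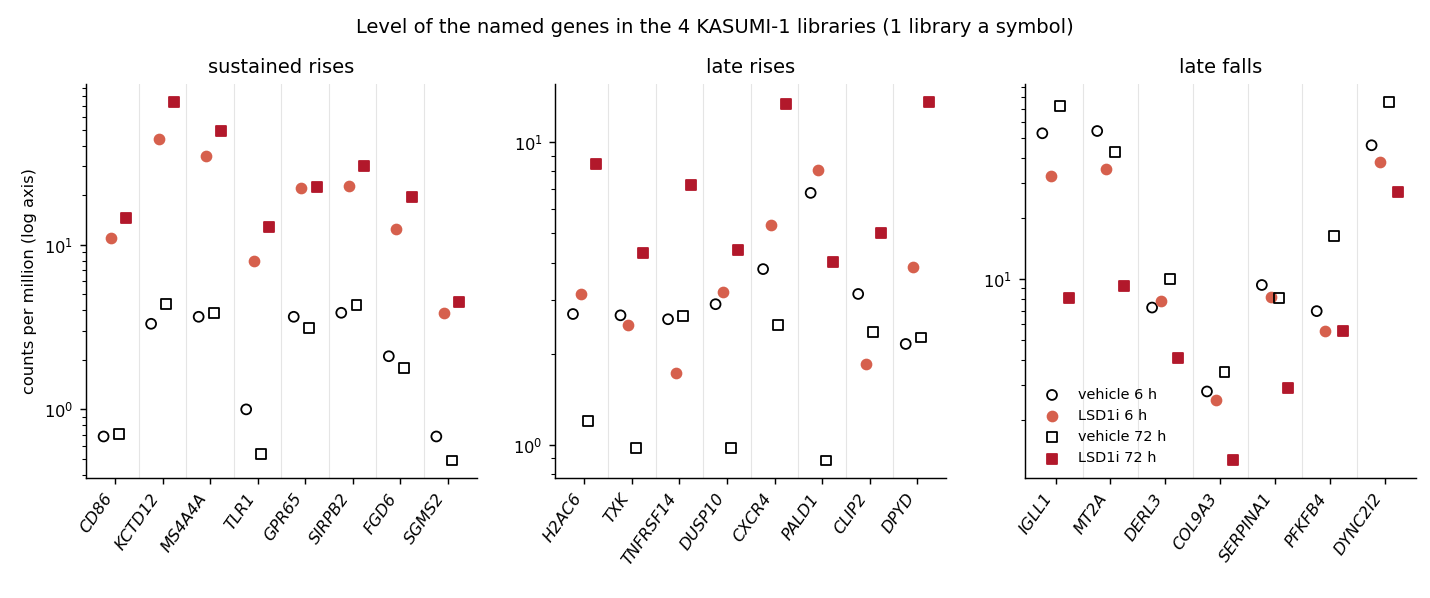
Level in CPM on a log axis for the 8 named sustained rises, 8 late rises and 7 late falls; each symbol is 1 library, open for vehicle and filled for LSD1i, a circle at 6 h and a square at 72 h. In the sustained rises filled symbols lie above open symbols at both times, whereas in the late groups the pair at 72 h is farther apart than the pair at 6 h. Both patterns follow from the rules that define the groups.

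Genes of cholesterol and fatty acid synthesis stood lower in their response at 72 h than at 6 h. Of the 36 members of this list 33 had a change below 0, whereas 58.1% of all members had one above 0. By at least 2-fold 4 changed downward, against 0.305% of all members, and none upward. By at least 1.5-fold 13 changed downward, against 3.19% of all members. The list's median log2 ratio was -0.06 at 6 h and -0.64 at 72 h, and its median change of -0.43 compares with 0.06 for all members. MVD, the decarboxylase that ends the mevalonate steps, had 21 and 18 CPM in the vehicle and LSD1i libraries at 6 h and 42.9 and 16.8 at 72 h, a change of -1.13 (-1.33 to -0.93). FADS2, a fatty acid desaturase, had 134, 129, 301 and 129 CPM, and HMGCS1, the synthase that makes HMG-CoA for the mevalonate pathway, had 141, 143, 198 and 96.9 CPM. In each of these 3 genes the 72 h vehicle library was the highest and the 72 h LSD1i library the lowest or level with the lowest. Most of the difference between the times lay in the vehicle level: over the whole list the median log2 ratio of 72 h over 6 h was 0.55 in the vehicle libraries and -0.09 in the LSD1i libraries. The labels give no density or medium change for the cultures, and their part in the result was not tested.

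Genes of DNA replication and mitosis had lower responses at 72 h too, by less. Of 39 S phase genes 38 had a change below 0, with a median of -0.35, and of 45 genes of G2 and mitosis 44 did, with a median of -0.31. Among all members 58.1% had a change above 0. A downward change of at least 1.5-fold was found for 9 and 6 of them, against 3.19% of all members. One of at least 2-fold was found for POLD1 alone, against 0.305% of all members. POLD1, the catalytic subunit of DNA polymerase delta, had 51.5 and 50.1 CPM in the vehicle and LSD1i libraries at 6 h and 86.5 and 41.4 at 72 h, a change of -1.02 (-1.15 to -0.89). MCM5, a subunit of the replicative helicase, had 116, 116, 145 and 83 CPM, TK1, the thymidine kinase of S phase, had 126, 110.1, 189 and 98.4 CPM, and CDC45, a helicase cofactor, had 73.1, 66.9, 80.5 and 44 CPM. In all 3 the libraries of the 6 h pair were close to each other, and at 72 h the LSD1i library was the lowest of the 4. MYBL2, a transcription factor of late cell cycle genes, had 244, 201, 317 and 142 CPM and a fall at 72 h with a log2 ratio of -1.16. The median log2 ratio of 72 h over 6 h in the LSD1i libraries was -0.45 for S phase genes and -0.48 for G2 and mitosis genes, against -0.01 and -0.20 in the vehicle libraries. As in any bulk sample, fewer cycling cells and less transcript in each cell cannot be told apart.

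E2F factors drive the genes of S phase, and their sites are shown as sequence context for this list. The letters TTTCCCGC were found on either strand in 6 of the 27 S phase promoters that matched (22.2%), against 2.49% of all member promoters, and TTTGGCGC in 5 of the 27 (18.5%), against 1.03%. The helicase subunit genes MCM3 (chr6:52284743-52284992, minus strand) and MCM6 (chr2:135876444-135876693, minus strand) carry them, with the match in capitals 166 bases before the start in MCM3 and at 144 and 82 bases in MCM6.
MCM3: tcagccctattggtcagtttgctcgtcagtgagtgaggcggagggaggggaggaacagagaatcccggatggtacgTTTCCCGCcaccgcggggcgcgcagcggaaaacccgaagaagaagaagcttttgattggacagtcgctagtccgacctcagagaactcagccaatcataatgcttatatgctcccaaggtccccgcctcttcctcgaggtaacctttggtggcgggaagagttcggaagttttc
MCM6: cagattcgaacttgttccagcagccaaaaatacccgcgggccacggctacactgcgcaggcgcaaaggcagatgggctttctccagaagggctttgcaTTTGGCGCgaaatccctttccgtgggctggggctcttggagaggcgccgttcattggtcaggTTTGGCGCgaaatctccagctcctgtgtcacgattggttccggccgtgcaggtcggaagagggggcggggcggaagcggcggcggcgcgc
MCM3 had 284, 308, 302 and 222 CPM with a change of -0.56 (-0.62 to -0.50), and MCM6 had 247, 222, 226 and 162 CPM with a change of -0.33 (-0.39 to -0.26). These promoters describe the list and say nothing of binding in these cells.

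Ribosomal protein and translation factor genes had higher responses at 72 h. Their median log2 ratio was -0.29 at 6 h and 0.26 at 72 h, a median change of 0.54. A change above 0 was found for 45 of the 51 members, against 58.1% of all members. Of these 21 changed upward by at least 1.5-fold, against 6.27% of all members, and none by 2-fold. RPS12, of the small subunit, had 4340 and 3315 CPM in the vehicle and LSD1i libraries at 6 h and 3356 and 4764 at 72 h. RPS27 had 1628, 1289, 1271 and 1793 CPM and RPLP1, of the stalk of the large subunit, had 5841, 4280, 4401 and 5418 CPM. For these 3 genes the LSD1i library was the lower of the pair at 6 h and the higher at 72 h. EEF1A1, the elongation factor, had a change of 0.73 (0.72 to 0.74). Many of these genes have processed pseudogenes, so their counts can be incomplete. The 6 h ratio also varied with transcript length over all members, divided into 10 equal bins. Its median log2 value was -0.26 in the bin of shortest transcripts and 0.15 in the bin of longest. The median change was 0.01 and 0.04 in these bins, and the part of length in the values of this list was not tested. Genes of ribosome biogenesis, which MYC activates, did not share the shift: 28 of 51 had a change below 0 and none changed by 1.5-fold downward or upward. MYC itself had 361, 263, 504 and 387 CPM, with log2 ratios of -0.46 and -0.38.

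Immune and differentiation genes held changes in both directions. Of the 18 antigen presentation genes that passed the filter 17 had a change above 0, against 58.1% of all members, with a median of 0.41. HLA-DRA, a class II chain, had 173, 148, 147 and 242 CPM and a change of 0.94 (0.87 to 1.02). The type I interferon list (33 members, median 0.24) was uneven, with GBP2 at 2.46, RSAD2 at 0.95 and OASL at -0.87. All 9 members of the granule list, which includes the transcription factor CEBPE, had a change below 0. PRTN3, the serine protease proteinase 3, had 1488, 1324, 1796 and 995 CPM, RNASE2, the eosinophil-derived neurotoxin, had 40.1, 36.4, 25.9 and 13.2 CPM, and the factor of granulocyte maturation CEBPE had 45.4, 30.6, 57 and 27.9 CPM. In these 3 genes the 72 h LSD1i library was the lowest of the 4. MPO, the peroxidase of azurophil granules, had 6282, 6982, 9149 and 8021 CPM, with log2 ratios of 0.15 and -0.19. Of the monocyte and macrophage list only 20 of 53 genes passed the filter, 3 of them sustained rises (CD86, LYZ and CLEC12A), against 0.666% of all members. Because the filter takes the mean of a pair, CD86 (0.682 and 0.709 CPM with vehicle) entered through its LSD1i libraries. Such a gene could enter only as a rise, so the count is a description. Of the 20 members 6 had a change below 0. CD14 had 0, 0, 2 and 1 reads. Stem and progenitor factors had a median change of 0.27: CD34 had 555, 628, 637 and 998 CPM and CD200 67.3, 80.3, 63.6 and 126 CPM, both highest in the 72 h LSD1i library. Of the 18 members 4 had a change below 0, among them the receptor kinase gene KIT with 506, 466, 706 and 585 CPM, highest in the 72 h vehicle library. Among myeloid transcription factors KLF10 (1.25) and ID2 (1.09) were late rises. The change was -0.26 for SPI1, 0.37 for CEBPA, 0.20 for GFI1 from log2 ratios of 0.53 and 0.74, and 0.26 for CSF1R with an interval that includes 0. Reads of RUNX1 and RUNX1T1 include those of the fusion transcript, and their changes were 0.17 and 0.20.

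Among regulators of mTOR and insulin signalling the median change of the mTOR list was 0.11. Of the 34 mTOR members 1 changed by at least 2-fold, upward, and of the 25 insulin, PI3K and AKT inputs none did, beside 1.01% higher and 0.305% lower among all members. This was DDIT4, which had 30.7 and 41 CPM in the vehicle and LSD1i libraries at 6 h and 17.1 and 58.9 at 72 h. Its vehicle level was lower at 72 h and its LSD1i level higher, with log2 ratios of 0.42 and 1.78 and a change of 1.36 (1.17 to 1.55). SESN1, a leucine-responsive inhibitor upstream of mTOR complex 1, had 20.3, 26.8, 19.3 and 43.4 CPM and SESN2 had 9.47, 9.09, 11 and 12.5 CPM. SESN1 was a rise at 72 h and SESN2 was a response at neither time. RPS6KB2, an mTOR substrate kinase, had a change of -0.61. PIK3IP1, an inhibitor of PI3K, had 14.3, 23.9, 18.4 and 61.4 CPM and a change just under 1, and IRS2 had a change of 0.30 with an interval that includes 0. Among 44 lysosome and autophagy genes 28 had a change above 0 and 16 below, with a median of 0.18, against 58.1% above 0 among all members. The 2 that changed by at least 2-fold did so upward, beside 1.01% of all members. WIPI1, which binds the phosphoinositide of forming autophagosomes, had 6.43, 7.41, 4.7 and 13.6 CPM, and the cholesterol carrier NPC2 had 82.2, 71.2, 73.1 and 138 CPM. In both the 72 h LSD1i library was the highest, and the changes were 1.32 and 1.12. In glycolysis PFKFB4, a regulator of fructose bisphosphate levels, had 6.95, 5.53, 16.4 and 5.55 CPM and the aldolase ALDOC 5.48, 5.03, 3.94 and 1.56 CPM, both late falls, while the mitophagy receptor BNIP3L was a rise at 72 h with 58, 88.2, 61.3 and 150.3 CPM. CDKN1A, the p21 inhibitor of cyclin-dependent kinases, was a fall at 72 h with 6.53, 5.38, 4.3 and 2.0 CPM. Of the 43 ATF4 targets none changed by 2-fold, a count near what the shares of all members (1.01% higher and 0.305% lower) give.

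**Figure D3:**
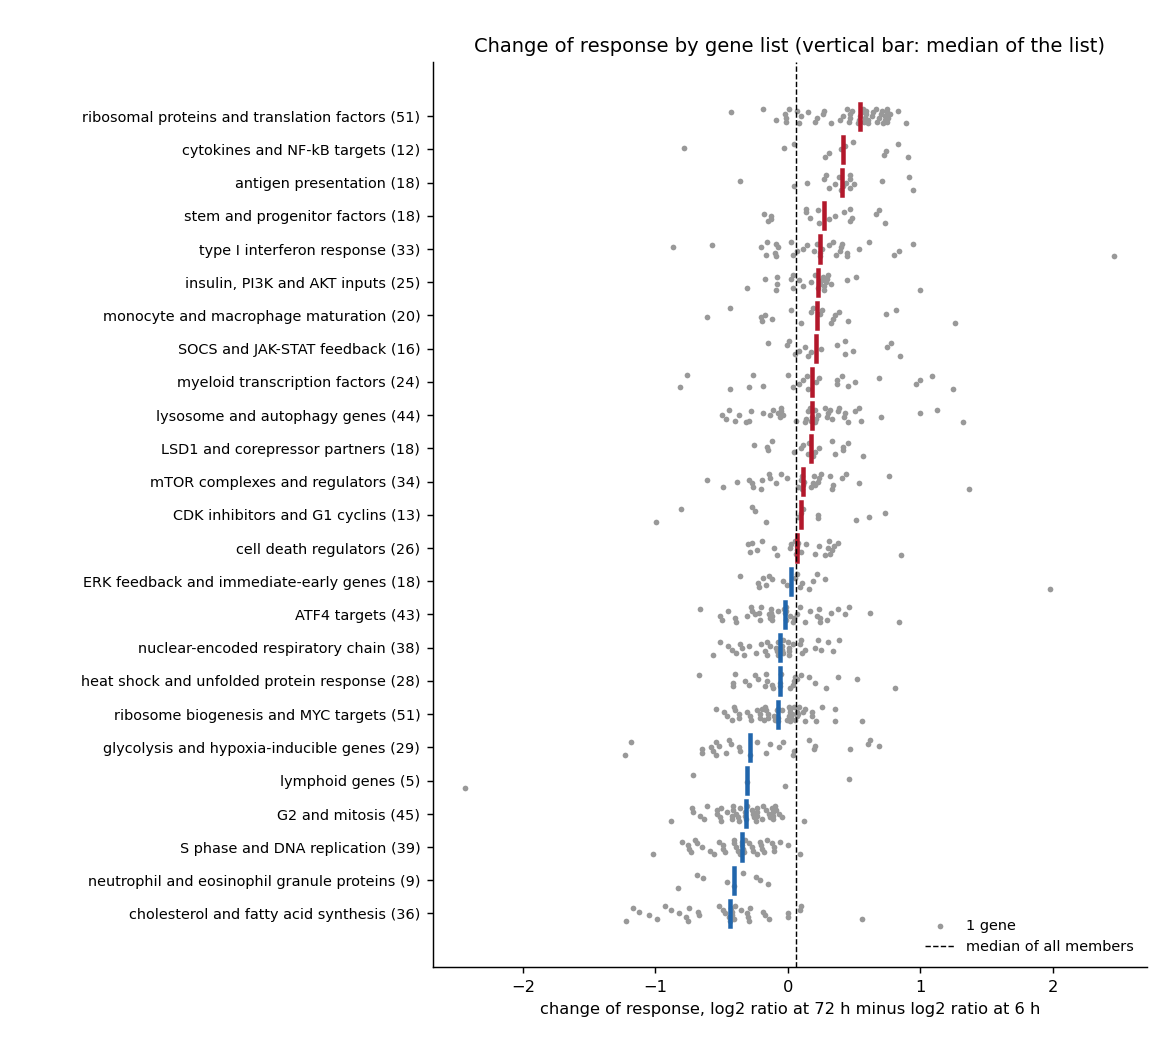
Each grey point is 1 gene of a list and each vertical bar the list's median change of response (x axis, log2); the dashed line is the median of all 10808 members and the number of members stands after each name. Among the lists of at least 5 members drawn, ribosomal protein genes lie highest with a median of 0.54 and cholesterol and fatty acid synthesis genes lowest with -0.43.

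No response of 6 h was lost by the rule, and the early responses that ended nearest to it were few. In all 7 genes responded at 6 h and not at 72 h, each with a change of less than 2-fold, and those with a current gene symbol were named after their values were seen. PCLAF, a PCNA-binding replication factor, had 38.7, 86.3, 47.9 and 83.1 CPM, with log2 ratios of 1.16 and 0.79. The inflammasome gene NLRC4 had 4.72, 11, 6.87 and 12.7 CPM, the receptor chain gene IL18R1 4.15, 10.1, 7.36 and 14.2 CPM and the phospholipase gene PLD2 3.1, 6.4, 5.19 and 8.74 CPM. For these 3 the interval of the change includes 0. SPHK1, a sphingosine kinase, had 9.29, 4.06, 13.6 and 8.45 CPM and went from -1.18 to -0.68. At the edge of the change threshold RABL2A lay just inside at 1.0 and PIK3IP1 just outside at 0.999, and on the lower side POLD1 lay inside at -1.02 and CDKN2A outside at -0.998.

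A change of response can come from the LSD1i libraries, from the vehicle libraries or from both. Of the 142 changed genes 71 had the larger move in the vehicle libraries. So did 5402 of the 10325 genes without a call, a similar share. Of the 62 late rises 32 did, and in 52 the vehicle level was lower at 72 h than at 6 h, while in 55 the LSD1i level was higher. Among the 10325 genes without a call the vehicle level was lower in 5468 and the LSD1i level higher in 5434. A late rise needs an upward change of at least 2-fold, so lower vehicle and higher LSD1i levels follow in part from its rule. The late falls divided evenly, with 9 of 18 led by each arm. IGLL1 (0.44 with vehicle, -1.99 with LSD1i) and MT2A (-0.35 and -1.92) rested on the LSD1i libraries. FADS2 (1.17 and 0.00) and PFKFB4 (1.23 and 0.00) rested mostly on the vehicle libraries.

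**Figure D4:**
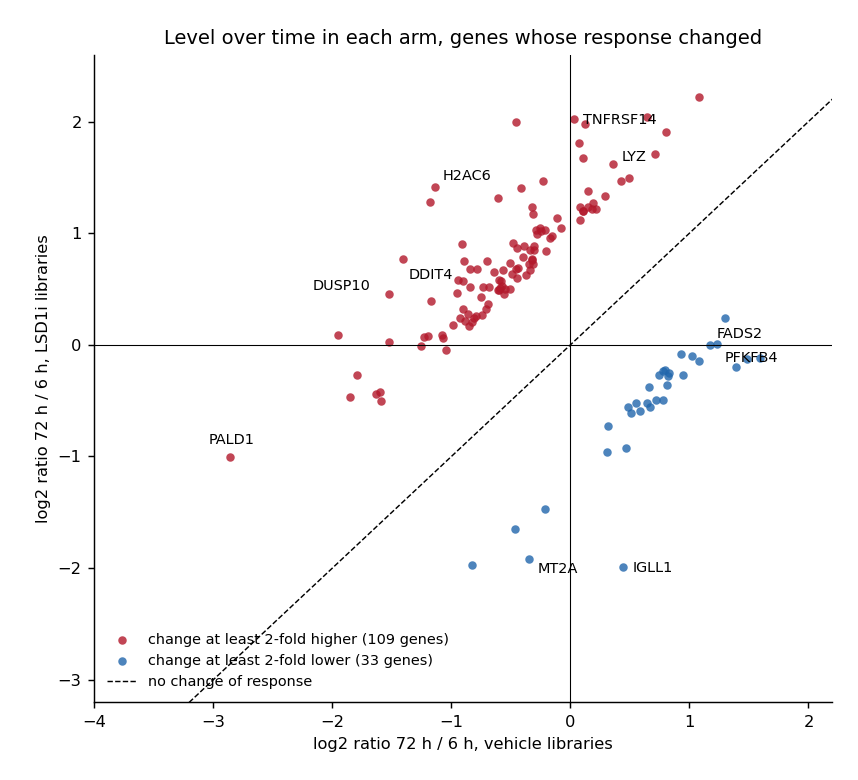
Log2 ratio of 72 h over 6 h in the vehicle libraries (x axis) and in the LSD1i libraries (y axis) for the 142 genes with a changed response; on the dashed line the response would be the same at both times. Red points (109 genes, higher at 72 h) spread over the upper left and blue points (33 genes, lower) over the lower right, with PALD1 and MT2A decreasing in both arms.

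With the spread borrowed from the THP-1 pairs, edgeR's quasi-likelihood F-test called 75 of 16651 genes at a Benjamini-Hochberg adjusted p under 0.05, 58 higher (0.348%) and 17 lower (0.102%). The prior degrees of freedom were estimated as infinite, so every p-value treats the spread shared by all genes as known. This fit has 1 residual degree of freedom, all of it from THP-1, and assumes that KASUMI-1 libraries vary as the THP-1 pairs do between 24 and 72 h. Of the 142 members past 2-fold it called 58. The adjusted p was 1.16e-12 for IGLL1, 7.64e-06 for GBP2, 7.72e-05 for CXCR4, 0.000219 for H2AC6 and 0.0017 for DDIT4. It was 0.249 for COL9A3, 0.123 for SERPINA1 and 0.0506 for PFKFB4, which were not called. Of the cholesterol and fatty acid genes 5 were called lower, and of the S phase genes 1. DESeq2 with the same design called CXCR4 and IGLL1 alone, with adjusted p of 0.0218 and 0.0109.

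Transcript base composition moved with the change of response. Members were divided into 10 equal bins by GC content. From the bin with the lowest GC to the bin with the highest, the median change went from 0.17 to -0.22, and the median of the vehicle libraries at 72 h over 6 h from -0.28 to 0.35. The 6 h ratio tilted too, from 0.20 to -0.19, and the 72 h ratio from 0.36 to -0.38. Late falls had a median GC content of 60.7%. With each pair centred within bins of GC content, chosen after seeing the data, 102 genes changed upward and 29 downward, and 13 genes were late falls. These included 89 of the 109 genes changed upward without centring and 26 of the 33 changed downward. Of the 62 late rises 49 were kept and of the 18 late falls 12. DYNC2I2, at -0.997, was not kept. The median change of the cholesterol and fatty acid list less that of all members was -0.53, against -0.50 without centring. The same difference was -0.45 for S phase genes and 0.46 for ribosomal protein genes, against -0.41 and 0.48, and -0.24 for the granule list, against -0.47. Library scaling also moved the balance: 76.8% of changed genes were higher with TMM factors and 32.5% with total counts alone, which move the median change of all members from 0.06 to -0.14. The members passing the filter also differed, 10739 with total counts and 10808 with TMM factors. With GC centring 2 lists near 0 turned sign in their median change less that of all members: CDK inhibitors and G1 cyclins went from 0.04 to -0.02, and ERK feedback genes from -0.04 to 0.01.

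**Figure D5:**
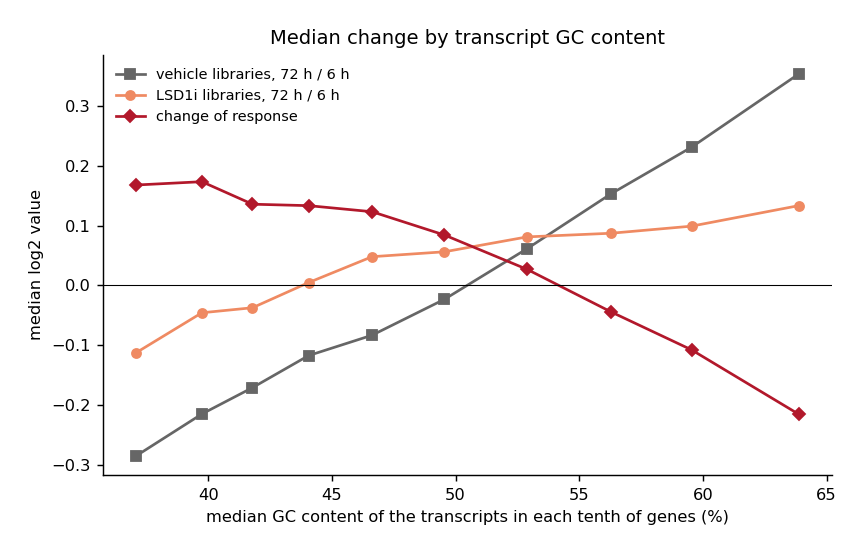
Median log2 value in each of 10 bins of members ordered by transcript GC content (x axis, median GC of the bin in %) for the 72 h over 6 h ratio of the vehicle libraries (squares), of the LSD1i libraries (circles) and for the change of response (diamonds). The vehicle line climbs from -0.28 to 0.35 and the change of response descends from 0.17 to -0.22.

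In THP-1, sampled at 24 and 72 h, the sustained genes of KASUMI-1 often rose as well. Of the 72 sustained rises 55 passed the same filter in THP-1, and 30 of them had risen there at 24 h, where 2.65% of all genes passing had, 33 at 72 h (3.08%) and 26 at both times (2.07%). Those 26 were among 230 THP-1 genes that rose at both times. In the other direction 2 of the 55 had fallen by 2-fold in THP-1 at 72 h, where 1.26% of all genes passing had. CD86 had THP-1 log2 ratios of 4.88 and 6.06, and LYZ of 2.45 and 4.39. With vehicle CD86 had 0.715 and 0.571 CPM in THP-1, so it passed the filter there through its LSD1i libraries. The 55 include such genes, and their shares are a description. Of the 62 late rises 42 passed and 6 and 12 of them had risen at 24 and 72 h, among them DUSP10 (1.03 and 1.07) and DDIT4 (1.33 and 1.04). At 72 h 1 of the 42 had fallen. Of the 18 late falls 16 passed and none had fallen by 2-fold at either time (0.404% and 1.26% of all genes passing). IGLL1 had THP-1 log2 ratios of 0.04 and 0.44. Between 24 and 72 h the THP-1 response itself was at least 2-fold higher for 39 genes (0.35%) and lower for 67 (0.602%). The early times differ between the lines, so no difference between them was tested.

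Names that reached 2 CPM in 1 pair only lie outside the 10808. In the 72 h pair alone 247 did so, of which 50 had risen at 72 h and 9 had fallen. A name that enters through the 72 h pair alone can do so through 1 high library, so these counts are a description and are not comparable with the 3.03% and 0.944% of the members. Among them FCRLA, an Fc receptor-like gene of B cells, had 3, 42, 0 and 218 reads, LY96, the partner of TLR4, had 7, 119, 3 and 268 reads, and the cholesterol exporter gene ABCG1, named after its values were seen, had 70, 68, 26 and 316 reads. For LY96 the ratio was 16.4 (7.74 to 41.8) at 6 h and 49.1 (16.6 to 239) at 72 h. For FCRLA it was 13.5 (4.33 to 68.3) at 6 h, and at least 39.9-fold higher at 72 h against a floor of 3 reads in the vehicle library. ITGAM, GFI1B and IRS1 also fell below the filter. In the 6 h pair alone 141 did so, with 7 rises and no fall.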

How the data were processed

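For all 8 libraries the authors deposited unnormalized read counts, summed over exons by gene name with featureCounts 1.5.2 per the file headers. Alignment with TopHat2 2.0.10 to hg18 (NCBI36), quality checks with FastQC 0.10.0, and Subread and edgeR are named in the submitters' processing notes, and the labels' protocols give a TruSeq kit with total RNA. The counting command sets neither a strand option nor an option for reads that map to several places, so antisense or overlapping genes cannot be told apart and close paralogs may be undercounted. Groups came from the labels, with 1 library each. Of the 33045 names 16840 were current symbols, 3286 were matched through older symbols in the reference name tables and 12919 had none, and the last were kept in the counts of genes but not named.

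TMM factors (edgeR 4.0.16 in R 4.3.3, filterByExpr minimum count 10) came from all 8 libraries, and log2 CPM used a prior count of 2. Ratios within a pair have exact conditional binomial 95% intervals, and the change has a Poisson interval with 0.5 added to each count. Without molecular identifiers reads can repeat a molecule, so intervals cover counting error only. Depth was 23722972 to 45970766 counted reads, and 1 read was worth 0.0243 to 0.0443 CPM. The secondary edgeR quasi-likelihood fit had 1 coefficient per KASUMI-1 library, 1 per THP-1 pair and 1 LSD1i term in THP-1 (common dispersion 0.0103); DESeq2 1.42.0 was an alternative. Alternatives were RLE, TMM over 4 libraries, total counts, other CPM minimums, a prior count of 5, a wider interval, and, chosen after seeing the data, centring by GC content, length or pair median.

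The members, the 29 gene lists (973 entries) and the tests were chosen with earlier results of these data known. Named genes were the 8 largest late rises, late falls and sustained rises with at least 10 reads in each library, genes with fewer reads by their reads, up to 4 members of each list described, and a set of genes named whatever their values. Values of some genes chosen this way are left out. Promoters were taken from RefSeq GRCh38.p14 and other coordinates from the table, in NCBI36. The ATF4 letters TGATGNAAT were searched too and were found in 0.303% of member promoters.

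The calculation was tested on simulated data for the KASUMI-1 change of response (10767 genes, 10570 of them unchanged). At a true log2 change of 1.5 the 2-fold rule recovered 88.0% and edgeR 86.0%, at -1.5 they recovered 97.9% and 85.4%, and at 2.5 they recovered 100.0% and 98.0%. Of the unchanged genes 0.274% passed the 2-fold rule and edgeR called 5. The simulated counts were drawn with the common dispersion of 0.0103, whose residual degree of freedom comes from THP-1. The spread of KASUMI-1 libraries was thus assumed, and these rates are not error rates of the real calls.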

Additional observations from a re-analysis of the deposited data

Results flagged for a closer look

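For 10 of the genes named in the report the ratio of LSD1i over vehicle lay on one side of equality at 6 h and on the other at 72 h, with both counting intervals off equality. No gene did so by 2-fold at both times. The change was at least 2-fold for 3 of them. TNFRSF14, the receptor HVEM, had a log2 ratio of -0.57 at 6 h and 1.42 at 72 h, a change of 1.99. CLIP2, a microtubule-binding protein gene, had -0.75 and 1.07, a change of 1.82, and the cholesterol carrier gene NPC2 had -0.21 and 0.92, a change of 1.12. The other genes had smaller changes at higher read counts: 0.94 for HLA-DRA, 0.89 for RPS12, 0.83 for RPS27, 0.75 for RPLP1, 0.73 for EEF1A1, -0.34 for MPO and -0.56 for MCM3. Each time point was 1 pair of libraries, so the difference between the times was not tested against a replicate spread in KASUMI-1.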

How the results depend on the processing

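Of the alternatives run, RLE factors, TMM over the 4 KASUMI-1 libraries, a prior count of 5, the interval with the common dispersion and centring by length or by pair median kept each count of changed, sustained, late, lost and reversed genes within 1.5 times its value. With total counts 49 genes changed upward and 102 downward, with 33 late rises, 47 late falls and 2 lost rises (SLC16A4 and 1 clone name). A minimum of 5 CPM left fewer genes: 49 changed upward, 16 downward, 29 late rises, and 31 changes led by the vehicle libraries. With 2 CPM in either pair there was 1 lost fall (MMP11). Centring by GC content left 0 sustained falls. DESeq2 called 2 genes, against 75 by edgeR (74 with RLE and 77 without the filter); 308 and 1414 genes had an unadjusted p under 0.05, and the cause was not tested. Of the named genes none that had changed by 2-fold turned its direction. The total counts moved MYC to -0.12 and RUNX1 to -0.04. No paired analysis was possible because each group held 1 library and the labels give no replicate numbers, and no library could be left out of a pair. Depth limits the late values most: 3 reads in the 72 h vehicle library were 0.133 CPM.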
